A study of Mus musculus with 2 samples.

Results

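Bidirectional gene-pair promoters were examined in DNase-seq libraries of mouse kidney. A pair was taken where a protein-coding gene on the minus strand and a protein-coding gene on the plus strand started back to back, with gene bodies that did not overlap and outermost transcription start sites (TSSs) 1000 bases or less apart. Among 21755 protein-coding genes of chromosomes 1 to 19 and X, this rule gave 754 pairs made of 1487 genes. They stood beside 20244 other coding promoters, which makes 20998 in all. Each pair was scored over the span between its start sites plus 500 bases on each side, a region with a median width of 1130.5 bases. The 21 genes that belonged to more than 1 pair placed 42 pairs in overlapping regions, so the pairs are not all independent. In 78 pairs at least 1 gene carried a gene-model name (Gm or Rik).

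The tissue was whole kidney of female B6CASTF1/J mice, 8 to 10 months old, a first-generation cross of the C57BL/6J and CAST/EiJ strains. The 2 libraries are numbered as biological replicates 1 and 2. They came from separate tissue samples filed under a shared donor entry, and the labels do not state separate animals, so the spread between them may be technical in part. No treatment, genotype or second tissue was compared, and whole tissue mixes all kidney cell types. A weaker signal in fewer open cells and in less open chromatin per cell cannot be told apart.

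DNase I cuts DNA that is not wrapped tightly in nucleosomes, so peaks of cut sites mark accessible chromatin. Footprints are short protected stretches within such chromatin, as seen where a protein covers the DNA. A bidirectional promoter is a stretch of accessible DNA that drives a gene on either side. Such pairs are common in mammalian genomes, usually lie in CpG islands without a TATA box, and often hold housekeeping genes of DNA repair, mitochondria and translation. Some pairs hold subunits of the same assembly, such as the histones H2A and H2B or a pair of type IV collagen chains.

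The promoters of 8 pairs are printed here in mm10 because the results below return to them. They run from up to 50 bases inside the minus-strand gene to the same distance inside the plus-strand gene and read 5′ to 3′ on the plus strand. Capitals mark bases that lay in a footprint of replicate 1 and also in a footprint of replicate 2. Hjurp/Trpm8 (chr1:88277583-88277711), Uqcrq/Gdf9 (chr11:53430781-53431073) and Pdhx/Apip (chr2:103073463-103073725) had some of the strongest peaks, and Bag4/Lsm1 (chr8:25785237-25785338) had start sites 1 base apart. Mrps12/Sars2 (chr7:28741770-28742042) joined a pair of mitochondrial translation genes and Col4a4/Col4a3 (chr1:82586799-82586971) a pair of collagen chains. Hist1h2ac/Hist1h2bc (chr13:23683924-23684223) differed between the libraries, and Hist1h2ap/Hist1h2br (chr13:21833476-21833774) had no peak.
Hjurp/Trpm8: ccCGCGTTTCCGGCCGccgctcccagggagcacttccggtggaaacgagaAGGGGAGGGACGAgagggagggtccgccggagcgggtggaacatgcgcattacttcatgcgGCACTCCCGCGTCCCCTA
Uqcrq/Gdf9: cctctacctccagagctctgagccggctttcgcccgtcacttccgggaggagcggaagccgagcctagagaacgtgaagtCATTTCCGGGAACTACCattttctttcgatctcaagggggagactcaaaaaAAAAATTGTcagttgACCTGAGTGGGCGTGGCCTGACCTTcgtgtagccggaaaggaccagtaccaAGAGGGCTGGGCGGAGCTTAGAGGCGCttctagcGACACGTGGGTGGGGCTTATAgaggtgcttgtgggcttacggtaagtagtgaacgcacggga
Bag4/Lsm1: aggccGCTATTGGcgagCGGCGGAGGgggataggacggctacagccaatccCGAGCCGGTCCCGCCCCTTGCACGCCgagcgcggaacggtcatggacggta
Pdhx/Apip: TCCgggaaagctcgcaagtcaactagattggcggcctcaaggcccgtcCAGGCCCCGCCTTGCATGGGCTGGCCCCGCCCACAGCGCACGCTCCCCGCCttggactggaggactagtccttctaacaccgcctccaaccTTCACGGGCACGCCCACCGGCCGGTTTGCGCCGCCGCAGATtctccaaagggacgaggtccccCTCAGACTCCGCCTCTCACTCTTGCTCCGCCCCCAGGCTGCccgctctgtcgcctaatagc
Mrps12/Sars2: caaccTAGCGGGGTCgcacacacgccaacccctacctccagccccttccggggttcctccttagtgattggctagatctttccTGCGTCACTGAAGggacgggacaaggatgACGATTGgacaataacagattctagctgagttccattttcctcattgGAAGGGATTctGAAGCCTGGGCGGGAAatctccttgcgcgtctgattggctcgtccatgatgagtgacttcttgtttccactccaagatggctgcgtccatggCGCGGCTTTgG
Col4a4/Col4a3: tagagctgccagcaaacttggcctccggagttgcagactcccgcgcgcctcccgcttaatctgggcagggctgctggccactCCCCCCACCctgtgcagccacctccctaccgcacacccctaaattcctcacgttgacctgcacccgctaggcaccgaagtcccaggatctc
Hist1h2ac/Hist1h2bc: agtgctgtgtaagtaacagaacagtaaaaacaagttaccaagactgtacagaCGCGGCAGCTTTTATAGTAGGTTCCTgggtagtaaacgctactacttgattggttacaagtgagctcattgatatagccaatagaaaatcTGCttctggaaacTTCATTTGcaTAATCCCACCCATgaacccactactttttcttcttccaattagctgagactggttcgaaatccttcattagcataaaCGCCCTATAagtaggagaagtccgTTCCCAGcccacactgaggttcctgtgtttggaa
Hist1h2ap/Hist1h2br: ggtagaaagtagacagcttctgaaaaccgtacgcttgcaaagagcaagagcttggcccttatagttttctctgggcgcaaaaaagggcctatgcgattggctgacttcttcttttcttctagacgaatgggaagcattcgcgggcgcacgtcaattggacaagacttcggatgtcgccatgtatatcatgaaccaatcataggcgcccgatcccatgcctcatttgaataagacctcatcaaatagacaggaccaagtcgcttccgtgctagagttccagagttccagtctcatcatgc

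In these sequences the covered share ran from 136 of 263 bases in Pdhx/Apip, in 4 stretches, to 0 of 299 bases in Hist1h2ap/Hist1h2br. Hjurp/Trpm8 had 45 of 129 bases covered, in 3 stretches. Uqcrq/Gdf9 had 99 of 293 bases covered, in 5 stretches. Bag4/Lsm1 had 43 of 102 bases covered, in 3 stretches. Col4a4/Col4a3 had 9 of 173 bases covered, in 1 stretch. Histone pair Hist1h2ac/Hist1h2bc had 66 of 300 bases covered, in 6 stretches. The 2 histone promoters were the poorest in G and C of the 8, with 42.0% in Hist1h2ac/Hist1h2bc and 48.2% in Hist1h2ap/Hist1h2br, against 69.6% in Bag4/Lsm1.

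The values below are the deposited signal of the strongest peak that overlapped a region. A region was called open where each library had a peak. On the chromosomes used, the longer peak lists held 137060 peaks in replicate 1 and 124976 in replicate 2, and the footprint lists held 316336 and 312909 footprints. Values rose in steps of 0.00827 and 0.00834, which would mean 120.9 and 119.9 M tags (M, mega) if a step is 1 tag, an inference from the values. Start-site windows of nephron tubule genes were open in both libraries for 7 of 9 markers. Slc34a1, a proximal tubule marker, had no peak in either library, and Aqp2 had 0.653 in replicate 1 and no peak in replicate 2. Windows of immune, striated muscle, hepatocyte and neuron genes were open for 1 of 7 markers (Alb, signal 0.455 and 0.292). Those of podocyte genes were open for 0 of 2 and those of endothelial genes for 1 of 2. Among all coding promoters outside the pairs 56.1% were open in both libraries, and the marker counts are small. The pairs were set beside the 8810 other coding promoters with an observed-over-expected CpG ratio (CpG o/e) of 0.6 or more, each scored over 500 bases on either side of its start site. No test was made between the pairs and these promoters, which are counts of regions within 1 group of samples. Intervals are exact binomial ones (95%) and hold counting error alone.

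Nearly all gene pairs were open in the kidney. Both libraries had a peak at 716 of 754 pairs, or 94.96% (95% interval 93.1 to 96.4). A further 4 pairs had a peak in a single library and 34 had none. Among the other CpG-rich promoters 89.8% were open, among the other CpG-poor promoters 30.0%, and among all other coding promoters 56.1%. The open share of pairs lay above each of these.

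Pairs were open more often than other promoters in each band of CpG content. Of the 635 pairs with a CpG o/e of 0.6 or more, 628 were open (98.9%, 95% interval 97.7 to 99.6), and of the 119 pairs below 0.6, 88 were open (73.9%, 65.1 to 81.6). The median CpG o/e was 0.761 in the pairs, which were not filtered on it, 0.778 in the CpG-rich set, which was, and 0.518 in all other coding promoters. In the band from 0.3 to 0.6, 87.2% of 94 pairs were open, against 56.8% of 4386 other promoters. Below 0.3, 6 of 25 pairs (24%) were open, against 13.4% of 7048 other promoters, so the order in this band rests on few pairs. At 0.9 or more the shares lay close together, with 97.2% of 106 pairs and 93.9% of 1616 other promoters. The plot of open share by CpG content shows these bands side by side.

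**Figure D1:**
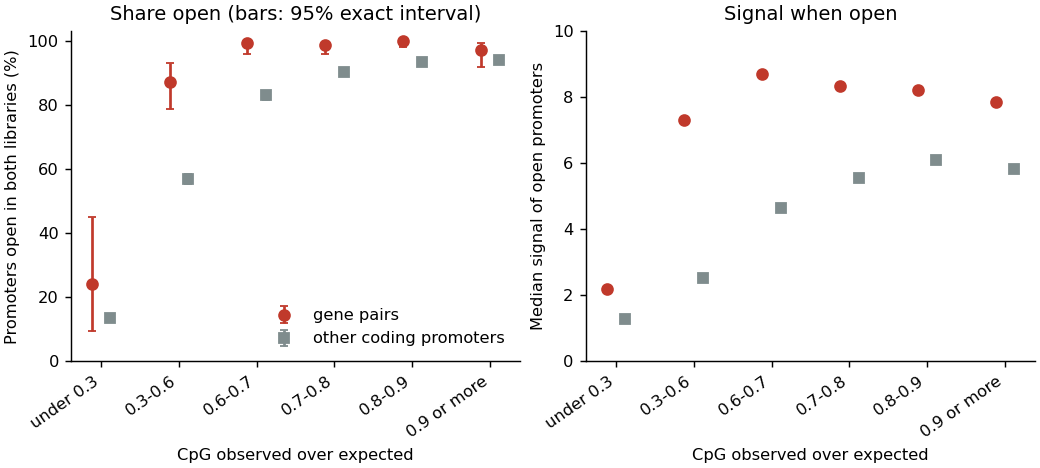
Share of promoters open in both libraries (left, percent, bars are 95% exact intervals) and median signal of the open ones (right, deposited signal) in 6 bands of observed-over-expected CpG, for gene pairs (circles) and other coding promoters (squares). The pairs lie above the other promoters in every band, with the widest gap in open share from 0.3 to 0.6 (87.2% of pairs and 56.8% of other promoters).

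Open pairs also carried a stronger signal. The median signal was 8.27 over the 716 open pairs (quartiles 5.10 and 11.98, range 0.361 to 33.5), against 5.51 over the 7912 open CpG-rich promoters (quartiles 2.74 and 9.32). The order held in each library, with medians of 7.90 in pairs and 4.97 in other promoters in replicate 1, and 8.33 in pairs and 5.73 in other promoters in replicate 2. A signal of 5 or more was found at 76.3% of open pairs, against 54.0% of open CpG-rich promoters. A signal under 1 was found at 1.96% of open pairs, against 7.74% of those promoters. The median of open CpG-poor pairs was 7.08, below that of the CpG-rich pairs at 8.38, while open CpG-poor other promoters had a median of 2.07. The 6 open pairs with a CpG o/e under 0.3 had a median of 2.19. Over the open pairs the signal had almost no rank relation to CpG o/e (Spearman rho 0.03, a description over 716 regions that share 2 libraries).

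Some of the other CpG-rich promoters also had an annotated start site on the opposite strand just upstream, outside the pair rule. Those 655 promoters were open in 92.7% of cases, with a median signal of 6.57 when open. The 8155 without such a start site were open in 89.6%, with a median of 5.39. Both groups lay below the gene pairs in both measures.

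The strongest pair promoter was that of Hjurp, which encodes the chaperone that loads the centromeric histone, and Trpm8, a cold-sensing ion channel. Its signal was 30.1 in replicate 1 and 37.0 in replicate 2, with start sites 28 bases apart. Uqcrq, a subunit of respiratory complex III, paired with Gdf9, a growth factor of the oocyte, and had a signal of 28.3 and 25.8. The peak of such a pair cannot be given to either gene.
The 10 strongest also included Chtf18/Rpusd1, Aamp/Pnkd, Tom1l2/Drc3, Pdhx/Apip, Cep57/Fam76b, Rita1/Ddx54 and Pdcd10/Serpini1, with means of the 2 libraries from 21.6 to 24.6. Within them Tom1l2/Drc3 varied most, at 30.8 in replicate 1 and 17.5 in replicate 2, and Rita1/Ddx54 least, at 22.5 and 23.3. Pdhx, a component of the pyruvate dehydrogenase complex, and Apip, an enzyme of methionine salvage, shared a promoter with 23.2 and 24.6.

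Library agreement was close over most pairs. The signals of replicates 1 and 2 had a Spearman rho of 0.92 over the 716 open pairs, and 0.96 over the other CpG-rich promoters. The log2 ratio of replicate 2 to replicate 1 had a median of 0.05 and an SD of 0.40 over pairs, against a median of 0.15 and an SD of 0.39 over the other promoters. If a step is 1 tag, counting error alone would give a median SD of 0.06 for pairs and 0.08 for other promoters. A difference above 2-fold was seen in 12 open pairs (1.68%), against 2.28% of the other open CpG-rich promoters.

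**Figure D2:**
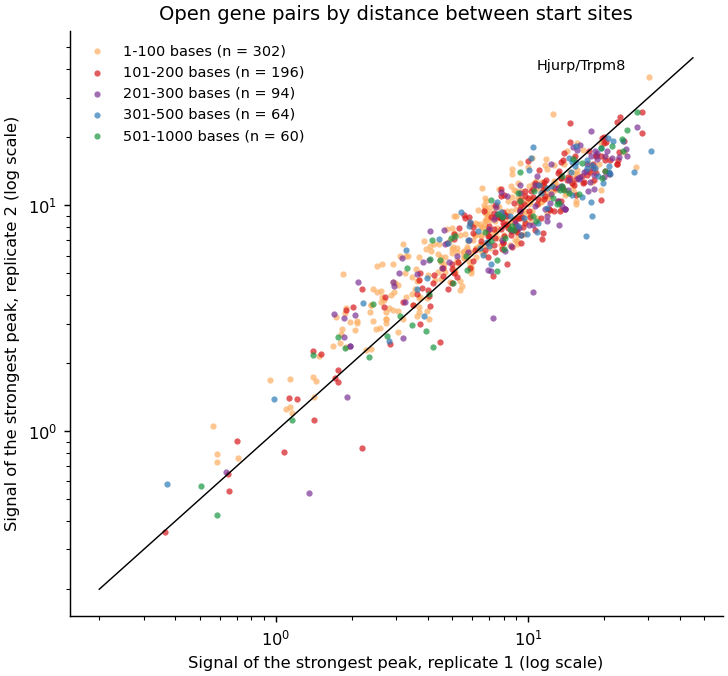
Deposited signal of the strongest peak of each of the 716 open gene pairs in replicate 1 (horizontal, log scale) and replicate 2 (vertical, log scale), coloured by the distance between start sites, with the line of equal signal. Most pairs lie near the line, 12 differ more than 2-fold, and Hjurp/Trpm8 lies at the top with 30.1 and 37.0.

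The pairs that differed most included several histone genes. The promoter of Hist1h2ac and Hist1h2bc, which encode an H2A and an H2B histone, had a signal of 10.5 in replicate 1 and 4.13 in replicate 2, and Hist1h2ae/Hist1h2bg had 2.19 and 0.842. Hist1h2ak/Hist1h2bn, named after its values were seen, had 1.36 and 0.534. All 3 were lower in replicate 2. Tbc1d10b/Mylpf, which pairs a regulator of Rab proteins with a myosin light chain of fast muscle, had 17.0 in replicate 1 and 7.29 in replicate 2. In the other direction, Sqstm1/Mgat4b had 1.84 in replicate 1 and 4.99 in replicate 2. Sqstm1 encodes an autophagy receptor. Zdhhc6/Vti1a had 2.12 and 4.56, and Emc3/Fancd2 had 2.51 and 5.39. With 1 library on each side these differences have no replicate check.

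The distance between start sites had a median of 129.5 bases and ran from 1 to 987, with 312 pairs at 1 to 100 bases, 206 over 100 and up to 200, 100 over 200 and up to 300, 66 over 300 and up to 500 and 70 above that. The median signal was highest between 300 and 500 bases. Median signals of open pairs were 7.04, 8.66, 10.2, 11.5 and 8.25 in these 5 classes, and the open shares were 96.8%, 95.1%, 94%, 97.0% and 85.7%. Over all open pairs distance and signal had a Spearman rho of 0.23. Regions of distant pairs are longer by construction, and the median CpG o/e of the open pairs was 0.653 in the widest class and 0.780 in the narrowest.

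At short distances a single peak mostly covered both start sites, and at longer distances it seldom did. Among open pairs 1 to 100 bases apart, 82.5% had a single peak that covered both start sites in each library. This share was 49.5% in the class up to 200 bases, 17.0% up to 300, 3.13% up to 500 and 0% above that. To cover both start sites, a peak must be longer than the distance between them. All peaks together covered a median of 303.5 bases of an open pair region in replicate 1 and 316.5 in replicate 2. By construction, peak length therefore limits this share at long distances. Of the 124 open pairs more than 300 bases apart, 61 had a peak within 100 bases of each start site in both libraries. In 59 of these, at least 1 library had no peak that covered both start sites. A peak can lie within 100 bases of both start sites without covering them, so separate peaks are not shown. In another 57 of the 124, a peak lay near only 1 of the start sites, and in 6 near neither. In all, 364 of 716 open pairs (50.8%) had a single peak over both start sites.

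The strongest peak was centred between the start sites in both libraries at 417 of 716 open pairs (58.2%). Short pairs leave little room for this, and the share was 40.7% at 1 to 100 bases, 64.8% in the class up to 200, 80.9% up to 300, 73.4% up to 500 and 73.3% above that. Measured from each gene, the centre of the strongest peak lay a median of 62 bases upstream of the start site of the minus-strand gene and 57.5 bases upstream of that of the plus-strand gene in replicate 1. In the other CpG-rich promoters it lay 35.5 bases upstream. The centre was upstream of the start site in 82.4% of minus-strand genes and 83.0% of plus-strand genes of pairs, against 68.5% of the other promoters. Replicate 2 gave 62.5 and 58 bases for pairs and 33.5 bases for the others. The same strongest peak was measured from both start sites of a pair, so a peak between them counts as upstream of both. The pair region also reaches farther upstream of each start site than the window of the other promoters. By construction, pairs and other promoters are therefore not measured alike here.

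**Figure D3:**
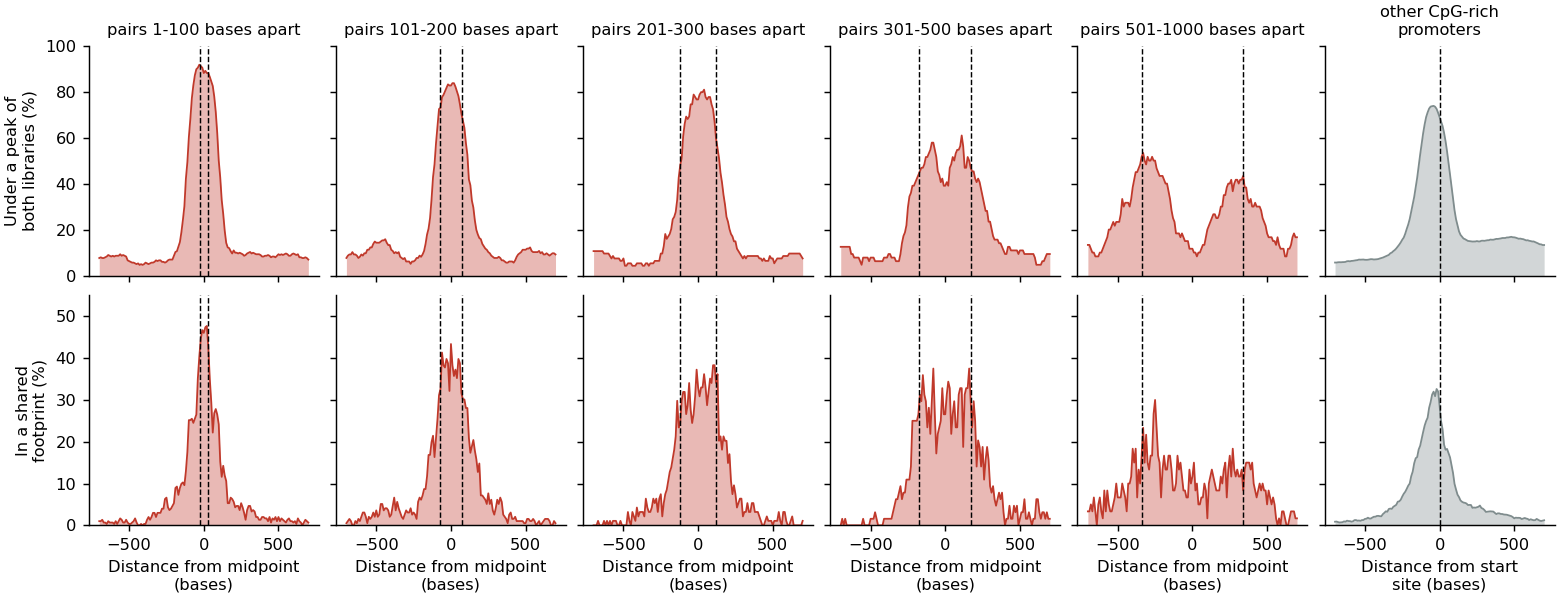
Percent of open regions under a peak of both libraries (top) and in a shared footprint (bottom) by distance in bases from the midpoint of the pair, in 5 classes of start-site distance, and from the start site for other CpG-rich promoters (right, upstream is negative). Dashed lines mark the median start-site positions. A single summit reached 91.7% in the narrowest class, and 2 separate summits stand near the start sites in the widest class, where the highest reached 53.3%.

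Single pairs show the same range. The closest pairs were Bag4/Lsm1 and Slc7a6os/Prmt7, 1 base apart, Dhrs1/Nop9 at 3 bases, Bag5/Apopt1 at 4 and Wdr54/1700003E16Rik at 7. Bag4, a partner of Hsp70 chaperones, and Lsm1, an mRNA decapping factor, shared a single peak with a signal of 10.3 in replicate 1 and 10.8 in replicate 2. Slc7a6os/Prmt7 had 5.62 and 7.48, Dhrs1/Nop9 had 2.75 and 3.37, and Bag5/Apopt1 had 4.01 and 4.91. Wdr54/1700003E16Rik was weak at 0.587 and 0.792. The other 4 of these 5 pairs spanned 3.06 to 10.5 in their means.
At the far end, Btf3l4/Txndc12 lay 987 bases apart, Asphd1/Sez6l2 981, Zfyve26/Rad51b 978 and Smim7/Tmem38a 967. The strongest peak stood next to 1 gene in most of them. It was centred 956.5 bases from the start of Btf3l4 and 30.5 bases from that of Txndc12, a thioredoxin-like protein of the endoplasmic reticulum, in replicate 1. In Zfyve26/Rad51b it was centred 46.5 bases upstream of Zfyve26 and 931.5 bases from Rad51b, a recombination protein. In Asphd1/Sez6l2 it lay near the middle, 418.5 and 562.5 bases from the start sites in each library. Smim7/Tmem38a had the highest signal of these 4, with 15.0 in replicate 1 and 16.0 in replicate 2.

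More than 1 peak per region was common. At 274 of 716 open pairs (38.3%) each library had 2 or more peaks, against 31.1% of the other open CpG-rich promoters. When each gene of a pair was scored over 500 bases on either side of its own start site, as the other promoters were, the share was 30.97%, next to their 31.1%. At that width 94.01% of the gene windows were open and the median signal was 8.23, against 89.8% and 5.51 in the other promoters.

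Footprints found in both libraries were also more numerous at the pairs. A region held a median of 6 shared footprints in pairs and 4 in the other CpG-rich promoters, and among open regions 6 in pairs and 5 in the others. All shared footprints of the open regions, whether or not they lay in a peak, were divided by the kilobases of peak. This ratio was 18.1 in pairs and 15.2 in the others. Open pairs without any shared footprint numbered 8 (1.12%), against 421 (5.32%) of the other open promoters. The number of shared footprints followed the signal with a Spearman rho of 0.53 in pairs and 0.68 in the other promoters. The part of the signal in the footprint counts was not tested.

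Shared footprints gathered between the start sites. The bases between them made up 15.8% of the open pair regions and held 39.5% of the 4655 shared footprints, or 13.7 per kilobase, against 3.94 per kilobase in the 500 bases on either side. The density between the start sites fell across the distance classes, with 21.2 per kilobase at 1 to 100 bases, 17.95 in the class up to 200, 15.4 up to 300, 13.5 up to 500 and 6.86 above that. The densities in the flanks were 4.44, 4.05, 3.32, 3.20 and 2.78. In the other open CpG-rich promoters shared footprints were also most frequent near the start site. Of them, 32.6% had a shared footprint at -20 bases (upstream is negative), 1.53% at -500 and 1.67% at 500. A density near the start site was not computed for them, so the gathering is not shown to be particular to pairs. The pairs with the most shared footprints were B3galt6/Sdf4 and Fiz1/Gm44973 with 19 each and Hdlbp/Sept2 with 18. B3galt6, an enzyme that builds the linker of glycosaminoglycans, and Sdf4, a calcium-binding protein of the Golgi, had a signal of 7.82 in replicate 1 and 11.5 in replicate 2. Hdlbp/Sept2 had 13.5 and 13.2, and the annotation lists Sept2 under 2 gene entries, so this region counts as 2 pairs.

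Letter motifs of factors known from CpG-island promoters were searched on both strands in windows of 500 bases on either side of the pair midpoint, or of the start site of the other CpG-rich promoters. A match is a description of letters, not of a bound factor, and the letters of different motifs may overlap. CCGGAAG, the core of ETS factors, was in 41.9% of pair windows, against 29.4% of the other windows. CGCANGCG, a core of NRF1, a regulator of mitochondrial genes, was in 38.9% of pair windows and 32.7% of others. AAGATGGC, a core of YY1, was in 15.1% and 9.72%, and ACTACANTT, a part of the ZNF143 element, in 6.50% of pair windows and 3.26% of others. CCAAT, the core of NFY, was in 69.4% of pair windows and 64.1% of others. GGGCGG, the core of SP and KLF factors, was in nearly all windows, with 89.8% of pairs and 92.0% of others.
Letters of factors of differentiated epithelium and of AP-1 had shares close to or below those of the other windows. GTTAAT, a core of HNF1, which acts in kidney tubules, was in 9.42% of pair windows and 13.3% of others. CAAAGTCC, a core of HNF4, was in 3.98% of pair windows and 3.47% of others. TGANTCA, the core of AP-1, was in 11.0% of pair windows and 12.2% of others.

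Counting only windows where the centre of a match lay inside a shared footprint, the order was SP and KLF first, with 65.8% of pairs and 54.8% of others. NRF1 followed with 25.99% of pairs and 17.2% of others, NFY with 20.8% and 13.4%, and ETS with 17.4% and 9.70%. CACGTG, an E-box, was so placed in 7.03% of pairs and 5.37% of others, TGACGTCA, a CRE element, in 4.64% and 3.75%, YY1 in 4.11% and 2.02%, and CTCGCGAG, known from Kaiso, in 2.25% and 1.83%. ZNF143 letters were so placed in 2.25% of pairs and 0.704% of others, HNF1 letters in 0.663% and 0.420%, HNF4 letters in 0.398% and 0.306%, and AP-1 letters in 0.928% and 0.250%. Pairs hold more footprints, so the same letters were also counted per footprint. On that count NRF1 letters were in 5.69% of 4514 footprints in pairs and 4.76% of 39426 in the others, ETS letters in 3.21% and 2.37%, and NFY letters in 4.74% and 3.66%. YY1 letters were in 0.753% of footprints in pairs and 0.462% in the others, and ZNF143 letters in 0.399% and 0.157%. AP-1 letters were in 0.155% and 0.0583%, and HNF1 letters in 0.111% and 0.0938%. For 5 of the 12 motifs the count per footprint was lower in pairs. SP and KLF letters were in 19.8% of footprints in pairs and 21.9% in the others, and CRE letters in 0.798% and 0.862%. Shares were nearly equal for E-box letters (1.307% and 1.314%), Kaiso letters (0.421% and 0.429%) and HNF4 letters (0.0665% and 0.0685%). Only 3 footprints in pairs held HNF4 letters, 5 held HNF1 letters and 7 held AP-1 letters.

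**Figure D4:**
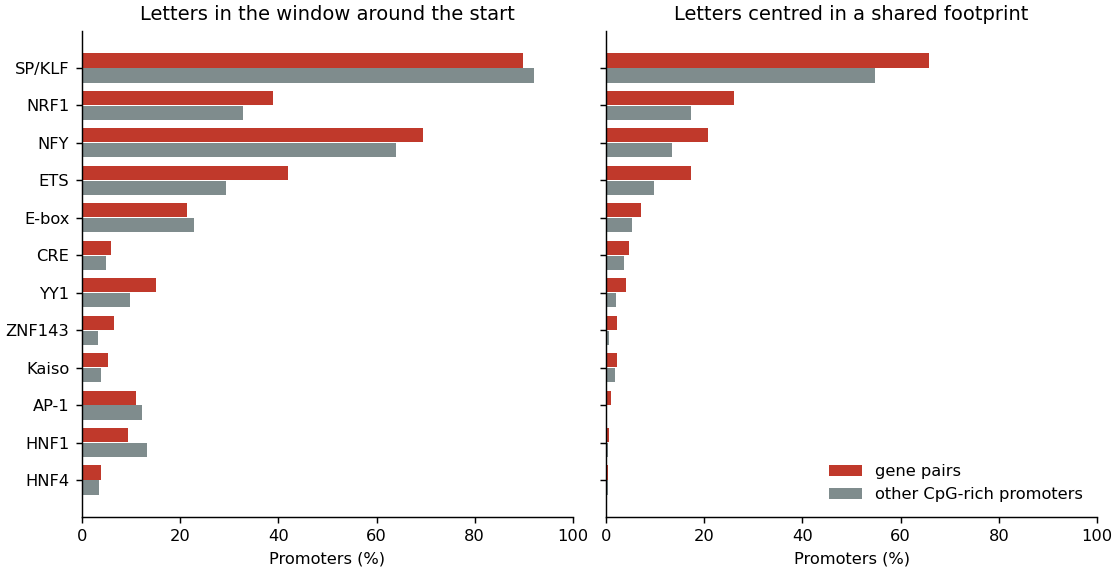
Percent of gene-pair windows (upper bar of each row) and of other CpG-rich promoter windows (lower bar) that hold the letters of each of 12 motifs (left) and in which the centre of a match lies inside a shared footprint (right). SP and KLF letters are in most windows of both sets, and ETS letters differ most in the left panel (41.9% of pairs and 29.4% of others).

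The printed promoters show such matches. In Bag4/Lsm1 the reverse complement of CCAAT at bases 9 to 13 and of GGGCGG at bases 62 to 67 lies in capitals, while a CCAAT at bases 45 to 49 is in lower case. In Pdhx/Apip both GGGCGG matches, at bases 75 to 80 and 229 to 234 on the minus strand, lie in capitals. Uqcrq/Gdf9 holds CACGTG at bases 234 to 239 and GGGCGG at bases 206 to 211, both in capitals, and an ETS core at bases 40 to 46 in lower case. The ETS core of Hjurp/Trpm8, at bases 33 to 39, and the AAGATGGC of Mrps12/Sars2, at bases 244 to 251, are also in lower case. Both histone promoters hold 3 CCAAT matches each, none of them in capitals.

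The exact letters TATAAA were rare at the usual place of a TATA box. Variants of these letters and boxes at other distances were not counted. TATAAA was found between 20 and 40 bases upstream of 3 of 1485 distinct start sites of pairs (0.202%), against 75 of 8810 other CpG-rich start sites (0.851%) and 449 of 11434 CpG-poor ones (3.93%). The 3 pairs were Duox2/Duoxa2, an oxidase that makes hydrogen peroxide and its maturation factor, Foxa3/Sympk, and Hist1h2ae/Hist1h2bg. Their mean signals were 0.478, 7.04 and 1.52.

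Lists of genes by function or family, taken by symbol, placed the pairs in known roles. A pair counts in a list where at least 1 of its genes does, and a pair can be in several lists. The counts of open pairs in a list are read beside the share over all pairs, 94.96%, and a list with every member open lies near that share. All 18 pairs of the mitochondrial ribosome were open, with a median signal of 8.78, beside 8.27 over all open pairs. The strongest were Mrps18b/Ppp1r10 with 19.04 in replicate 1 and 15.3 in replicate 2, Mrpl49/Fau with 12.5 and 12.4, and Klc4/Mrpl2 with 10.9 and 13.5. Mrps12/Sars2 had 11.0 and 10.7 and 15 shared footprints. It joins a small-subunit protein to the mitochondrial seryl-tRNA synthetase.
All 24 pairs with a gene of the respiratory chain, its ATP synthase or its assembly factors were open, with a median of 8.20. Besides Uqcrq/Gdf9, they were led by Tepsin/Ndufaf8 with 14.6 in replicate 1 and 23.2 in replicate 2, and Wdr4/Ndufv3 with 18.6 and 16.5. The weakest was Ndufa1/Rnf113a1 with 1.97 and 3.06.

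Translation and protein turnover gave similar levels. The 5 pairs with a tRNA synthetase were all open with a median of 10.0, and included Mrps12/Sars2 and S100pbp/Yars, the second with 9.44 in replicate 1 and 10.6 in replicate 2. The 8 proteasome pairs were all open with a median of 9.94, led by Psmb1/Tbp with 12.8 and 11.97, which joins a core subunit to the TATA-binding protein. Mrpl32/Psma2, with 11.6 and 12.2, and Psme2/Rnf31, with 13.3 and 10.3, followed. Of 9 pairs with a protein of the cytosolic ribosome 8 were open, with a median of 9.19, led by Med22/Rpl7a with 15.1 and 16.3, Rps28/Ndufa7 with 10.4 and 16.3, and Rpl36al/Mgat2 with 11.4 and 12.7. Rnf151/Rps2 had no peak.

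DNA repair and replication genes stood in 33 pairs, of which 32 were open, with a median of 7.93. The strongest were Brca1/Nbr1 with 20.2 in replicate 1 and 14.2 in replicate 2, Atm/Npat with 18.5 and 14.6, and Mcm4/Prkdc with 17.1 and 15.9. Brca1 and Atm act at DNA breaks, and Mcm4 belongs to the replicative helicase while Prkdc encodes the kinase of end joining. Pinlyp/Xrcc1 had no peak. All 19 pairs with a gene of the cilium or centrosome were open, with a median of 8.31, led by Cep57/Fam76b with 24.8 and 21.5, Mbd4/Ift122 with 17.96 and 12.7, and Cramp1l/Ift140 with 17.6 and 12.7. Ift122 and Ift140 carry cargo back from the tip of the cilium, an organelle whose defects can cause kidney cysts. Zinc finger genes stood in 24 pairs, of which 23 were open, with a median of 7.42, led by Zfp654/Cggbp1 with 23.7 and 19.2, Zfp277/Dock4 with 17.3 and 15.4, and Zfp142/Bcs1l with 17.5 and 14.3. Zfp558/Mbd3l1 had no peak.

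Solute carriers, the transporters that tubule cells use to take up and pass on solutes, stood in 15 pairs, of which 14 were open, with a median of 7.77. The strongest were Cdk5/Slc4a2 with 17.2 in replicate 1 and 14.6 in replicate 2, Slc39a7/Rxrb with 10.6 and 12.5, and Fkbp15/Slc31a1 with 12.1 and 9.67. Slc4a2 exchanges chloride and bicarbonate, Slc39a7 carries zinc and Slc31a1 carries copper. Slc25a29 and Slc25a47, which form a pair of mitochondrial carriers, had 8.90 and 8.604. Slc27a5/Trim28 had no peak. Col4a4/Col4a3, the pair of collagen chains of the glomerular basement membrane, had 3.73 in replicate 1 and 3.93 in replicate 2, below the lower quartile of the open pairs. Its start sites lie 72 bases apart and its region held 3 shared footprints.

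Histone pairs were the lowest of the lists with 5 or more pairs. Of 14 histone pairs 11 were open, with a median of 3.28 and a range from 0.945 to 8.59, though their median CpG o/e was 0.867. The strongest was Hist2h2ac/Hist2h2be with 8.86 in replicate 1 and 8.32 in replicate 2, followed by Hist1h2ac/Hist1h2bc and by Hist1h2ag/Hist1h2bj with 6.95 and 5.18. They held a median of 2 shared footprints, against 6 over all open pairs. Histone genes are near copies of each other, and reads from identical stretches may not be placed uniquely. The share of 31-base words of a region that occur elsewhere in the genome was 100% in Hist1h2bq/Hist1h2ao and in Hist1h2ap/Hist1h2br, which had no peak, and 16.9% in Hist1h2ba/Hist1h2aa, which also had none. Among the open histone pairs it was 10.7% to 60.3%. Its part in the signal was not tested.

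Germ-cell genes stood in 10 pairs, of which 6 were open, with a median of 5.46. The strongest was Adam9/Tm2d2 with 17.7 in replicate 1 and 16.6 in replicate 2, whose Adam9 is a protease expressed in many tissues. Chmp1a/Spata33 had 8.87 and 7.03, and Rad51c/Tex14 had 5.61 and 8.83. Partners such as Chmp1a and Rad51c are broadly used genes. Nmur1/Tex44 and Aspa/Spata22 were among the 4 pairs with no peak. The antigen presentation list held only H2-T22/Gm6034, with 7.28 and 3.18, and the list of olfactory and vomeronasal receptors only Nt5c3/Vmn1r4, with 6.14 and 7.395. No pair held a mitochondrial chaperonin gene of the list.

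**Figure D5:**
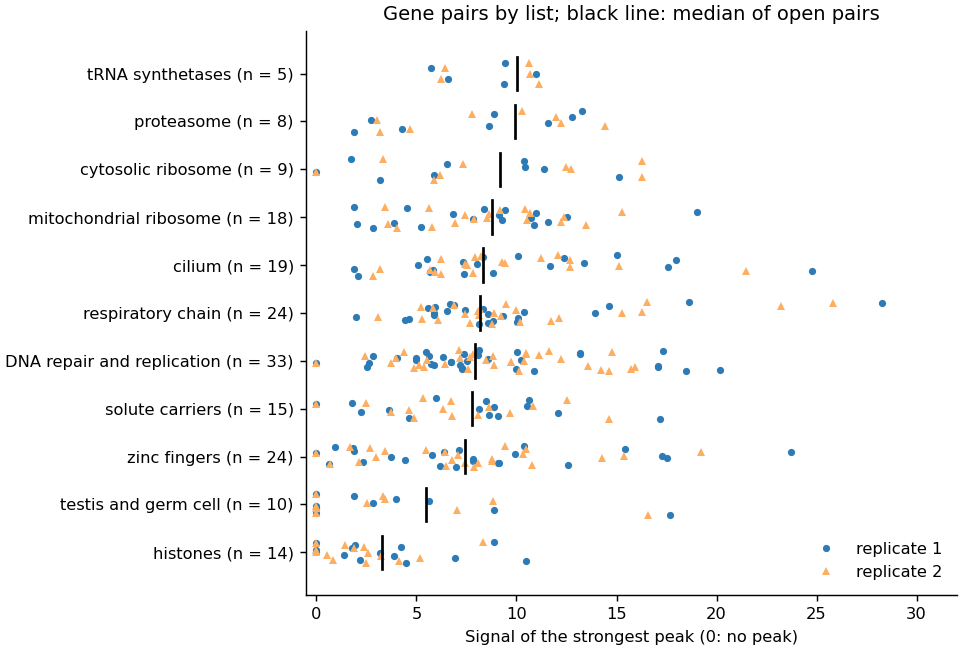
Deposited signal of the strongest peak of each gene pair in replicate 1 (circles) and replicate 2 (triangles), by list of genes with 5 or more pairs; 0 means no peak and the black line is the median of the open pairs. Medians run from 10.0 for tRNA synthetases to 3.28 for histones, and the ranges of the lists overlap.

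The 34 pairs with no peak were mostly poor in CpG. Of them 29 had a CpG o/e under 0.6, and only 5 lay above, namely the 3 histone pairs, Ddx25/Pus3 and Ptchd1/Gm15155. In 14 of the 34, a gene of the pair had a peak in both libraries at another annotated coding start site, so its outermost start was not the open one. Ccnt1, the cyclin of the elongation factor P-TEFb, had a mean signal of 16.2 at a start site 3287 bases away from its pair promoter. Dgcr2 had 14.2 at 6869 bases, the ribosomal gene Rps2 had 13.1 at 2135 bases, and the repair gene Xrcc1 had 17.0 at 861 bases. Pairs of this kind are pairs in the annotation, while the open chromatin stood apart from the shared region.

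Some further pairs without a peak are named here as examples; they and those of the paragraph above were chosen after their values were seen. Kirrel2/Nphs1, 625 bases apart, encodes nephrin and a relative of it, proteins of the podocyte slit diaphragm. Pecam1/Milr1, 598 bases apart, holds an adhesion protein of endothelium, and Pecam1 had a mean signal of 0.810 at another start site. Smyd1/Cd8b1 holds a muscle methyltransferase and a chain of a T-cell co-receptor. Nphs1 is also 1 of the 2 podocyte markers counted above. Among the endothelial markers, Kdr had a signal of 0.976 in replicate 1 and 1.51 in replicate 2. Pairs that hold a muscle or a glomerular gene were not all closed, since Tbc1d10b/Mylpf and Col4a4/Col4a3 were open. In the 4 pairs with a peak in a single library the signal was low, with 0.325 in replicate 2 for Bend6/Dst, 0.442 in replicate 2 for Nr2e1/Ostm1, 0.628 in replicate 1 for Sox6/1110004F10Rik and 0.308 in replicate 2 for Asb12/Pfn5.

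The weakest open pairs overlapped these in signal. There were 14 open pairs with a mean signal under 1, and their members were listed after the values were seen. Sobp/9030612E09Rik was the lowest with 0.364 in replicate 1 and 0.359 in replicate 2, although its CpG o/e was 0.830. Duox2/Duoxa2 had 0.372 and 0.584. Ifit1bl2/Ifit1, of an interferon-induced family, had 0.653 and 0.542, with a CpG o/e of 0.119. Sgce/Peg10, a pair of imprinted genes expressed from the paternal copy in mouse, had 0.562 and 1.06. Bhmt2/Dmgdh, enzymes of betaine and dimethylglycine metabolism, had 1.08 and 0.809.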

How the data were processed

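DNase-seq was done on kidney tissue of 2 samples (1 group). The authors deposited, per library and on mm10, 2 peak lists, a list of false discovery rates (FDR) and a footprint list. The peak signal is the value in the deposited lists. The FDR, which the authors deposited as a q-value, is listed up to 0.05, and each footprint of the deposited lists has the same p-value or q-value level of 0.01. Aligner, peak caller and footprint caller: not given in the sources used here.

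Pairs and start sites came from GENCODE M21, sequence from GRCm38.p6 (the mm10 assembly). For each region the strongest overlapping peak (at least 1 base) of the longer list gave the signal. A footprint was shared where it overlapped a footprint of the other library by at least 1 base, and was counted as listed in replicate 1. The 12 other promoters whose windows touched a pair region were left out. No mean or p-value across samples was tested, because there is 1 group. Depth is known only through the inferred tag totals, and 2 libraries limit the precision. Named pairs were the 10 strongest, the 5 closest and 5 farthest open pairs, the 3 largest ratios in each direction with a mean signal of 1 or more, the 3 with the most shared footprints, and per list up to 3 of the highest signal and up to 2 with no peak. A few pairs that this rule takes are not reported here. Lists went by symbol, and 4 genes that the symbol patterns took wrongly were removed after the values were seen. The pairs, lists and motifs were chosen with earlier results of these data known. The functions that find pairs and overlaps were tested on simulated regions. Python 3.11.15, pandas 2.3.3, numpy 2.4.6, scipy 1.17.1, numba 0.67.0 and bedtools 2.31.1 were used.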

Additional observations from a re-analysis of the deposited data

How the results depend on the processing

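No paired analysis was possible because there is 1 group and no comparison between groups. The open share of pairs was 94.4% with the shorter peak lists, 92.7% with peaks of a signal of 1 or more, 94.6% with an FDR of 0.001 or less in place of a peak, 95.9% for start sites 500 bases or less apart, 98.9% for CpG-rich pairs and 94.01% over windows of each start site, and 95.1% to 95.4% in a single library. The other CpG-rich promoters gave 86.0%, 81.0% and 86.9% under the first 3 of these, below the pairs each time. The median signal was 9.52 for the sum of peaks, against 6.34 in the other promoters, and 7.90 to 8.33 in a single library. Shared footprints cannot be counted in a single library, whose own footprints had a median of 8 per region in each. The share with 2 or more peaks moved most: 31.6% with the shorter lists, 25.8% with a signal of 1 or more, 29.5% with peak centres inside the region, 30.97% over start-site windows and 46.6% to 52.02% in a single library. The share with the strongest peak between the start sites was 58.9% with a signal of 1 or more, 56.9% for start sites 500 bases or less apart, 57.5% for CpG-rich pairs and 64.5% to 65.3% in a single library. The causes were not tested. Of 2 alternatives chosen after seeing the data, joining touching peaks was run for the share with 2 or more peaks (36.3%). The other left out all 42 pairs with a gene in more than 1 pair. It was run for the open share (94.94%), the median signal (8.29) and the shared footprints (6). These 4 values stayed within the spread between libraries. The weakest peaks rest on the fewest tags, and 2 libraries of a single group limit every spread given.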
